A study of Mus musculus with 15 samples.

Results

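The constitutive proteasome genes of mouse liver were taken from the count table by symbol. They were the rows named Psma, Psmb, Psmc, Psmd, Psme, Psmf or Psmg followed by a number, without the interferon-inducible catalytic subunits Psmb8, Psmb9 and Psmb10, and with a sum of at least 150 counts over the 15 libraries. This gave 44 of 15302 genes, and all 44 were among the 12274 genes abundant enough to be tested. The rule uses no comparison between groups. Its lowest members were Psmg4 with 1141 counts in all and Psmg3 with 1616, and below its limit lay Psma8 with 114, Psme2b with 76 and Psmc3ip with 71. By role the members were 7 alpha ring genes, 7 beta ring genes, 6 base ATPases, 11 other regulatory particle subunits, 3 regulatory particle chaperones, 4 activators, the inhibitor Psmf1 and 4 core particle chaperones. The symbol pattern also took in Psme3ip1, which encodes a binding partner of the activator Psme3 and no proteasome subunit.

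Liver RNA was sequenced from 15 wild-type (WT) mice, 5 in each of 3 groups. The GDF15 group had recombinant GDF15, a stress hormone that acts on the hindbrain to curb appetite, injected subcutaneously each morning at 1 nmol/kg. The PairFed group was given the weight of food that GDF15-treated animals had eaten a day earlier, and the Vehicle group is labelled only as vehicle. All 3 groups shared a diet for metabolic dysfunction-associated steatohepatitis (MASH) and housing near 29°C from 8 weeks of age, and every mouse lived alone during treatment. GDF15 was thus compared with Vehicle for the whole treatment, PairFed with Vehicle for restricted food, and GDF15 with PairFed for treatment at a matched food supply. The first pair of these comparisons uses the same Vehicle libraries, and each of the other pairs shares a group too.

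The proteasome is the large protease that breaks down ubiquitin-tagged proteins in the cytosol and nucleus. Its core particle is a barrel of alpha and beta rings with the cutting sites inside, and its regulatory particle recognises ubiquitin, unfolds the substrate with a ring of ATPases and feeds it into the barrel. Dedicated chaperones assemble both particles and leave before the work begins. In liver the proteasome turns over metabolic enzymes and supplies peptides for antigen presentation, and interferon exchanges its catalytic beta subunits for inducible forms.

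Libraries held 8551557 to 12994187 counts, with 8551557 to 10914914 in GDF15, 10133289 to 12933324 in PairFed and 9228127 to 12994187 in Vehicle. The largest gap in these totals lay between 10914914 and 12137462, and the 5 libraries above it were PairFed 2 to 5 and Vehicle 4, and none was from GDF15. Levels below are in CPM, the usual share of a gene's counts in its library, with the library total adjusted by TMM scaling (edgeR's trimmed mean of M-values), and log2 fold changes are on the same scale. All 10 hepatocyte markers were present in every group, and their summed CPM ran from 103130 to 132850 in GDF15, from 95529 to 119610 in PairFed and from 85814 to 108040 in Vehicle.

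The proteasome genes stood at nearly the same level in the 3 groups, and one of them moved. Psmd9, the chaperone that holds the ATPases Psmc3 and Psmc6 while the base of the regulatory particle is built, was 1.44-fold higher in GDF15 than in Vehicle livers. The other 43 genes lay between -0.15 and 0.14 on the log2 scale in that comparison. No member passed the test in PairFed against Vehicle or in GDF15 against PairFed.

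The promoter of Psmd9 is shown first because Psmd9 was the one member past the test, and that of Psmb5, a catalytic subunit that did not pass it, is set beside it because both carry a match to the same pattern. The sequences are the 250 bases before the RefSeq transcript start on GRCm38.p6, read on the gene's strand, for Psmd9 at chr5:123227940-123228189 (plus strand) and for Psmb5 at chr14:54617996-54618245 (minus strand). Capitals mark the antioxidant response element pattern TGACNNNGC in both and the E-box CACGTG in Psmd9.
Psmd9: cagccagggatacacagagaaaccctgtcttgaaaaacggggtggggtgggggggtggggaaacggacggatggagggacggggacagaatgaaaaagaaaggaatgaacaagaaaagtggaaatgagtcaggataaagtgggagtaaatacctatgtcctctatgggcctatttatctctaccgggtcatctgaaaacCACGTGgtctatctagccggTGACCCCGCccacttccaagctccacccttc
Psmb5: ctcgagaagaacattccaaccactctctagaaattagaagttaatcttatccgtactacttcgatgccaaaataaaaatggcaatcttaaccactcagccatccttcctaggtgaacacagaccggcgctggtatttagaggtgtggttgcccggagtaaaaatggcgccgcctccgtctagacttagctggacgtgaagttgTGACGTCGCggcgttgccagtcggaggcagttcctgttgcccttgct

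Counted from the transcript start, the match to TGACNNNGC lay at -31 to -23 in Psmd9 and at -47 to -39 in Psmb5, and the E-box of Psmd9 lay at -51 to -46. Promoters of 37 of the 44 members were in the RefSeq table, and windows of 250 bases before and 50 after the start were searched on both strands. TGACNNNGC is the core pattern bound by the factors Nfe2l1 and Nfe2l2, and it was in 6 of the 37 windows (16.2%), against 12.4% of all 32851 promoters in the table. The 6 were Psmb5, Psmb6, Psmc6, Psmd12, Psmd9 and Psme4. The CCAAT box, the pattern of the factor NF-Y, was in 13 windows (35.1%), against 37.4% of all promoters. CACGTG was in 4 windows (10.8%), namely Psma4, Psmd9, Psme3 and Psme3ip1, against 7.15% of all. The palindromic glucocorticoid response element was in none of the 37 windows and in 0.00913% of all promoters. These matches describe letters in a window and were not tested against any factor's binding.

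Per length of transcript, the classes of several genes ordered by their median CPM per kb were the beta ring (100.8), the alpha ring (85.5), the ATPases (63.2), the other regulatory particle subunits (52.0), the activators (47.9), the core particle chaperones (13.2) and the regulatory particle chaperones (9.40). Single genes of these classes overlapped in level. Mean CPM per kb over the 15 libraries ran from 67.8 (Psmb1) to 120.8 (Psmb6) in the beta ring, which carries the cutting sites. It ran from 24.4 (Psma2) to 96.0 (Psma6) in the alpha ring, which forms the gate of the barrel. The ATPases lay between 34.9 (Psmc6) and 75.3 (Psmc4), and the other regulatory particle subunits between 33.9 (Psmd14) and 112.9 (Psmd8). In the same unit, the regulatory particle chaperones lay between 9.15 (Psmd5) and 15.7 (Psmd9), and the core particle chaperones between 11.7 (Psmg2) and 19.4 (Psmg1). The activators ranged most widely, with 119.3 for Psme1 and 15.6 for Psme4, and the inhibitor Psmf1 had 12.2. The lowest member was Psme3ip1, with 8.24. Psmb6, Psme1, Psmb5 and Psmd8 headed the order with overlapping ranges over the 15 libraries, so that their order is not resolved, while the lowest library of each of them lay above the highest library of every chaperone. The lengths are medians over coding transcripts of an annotation that may not be the one the authors used.

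**Figure D1:**
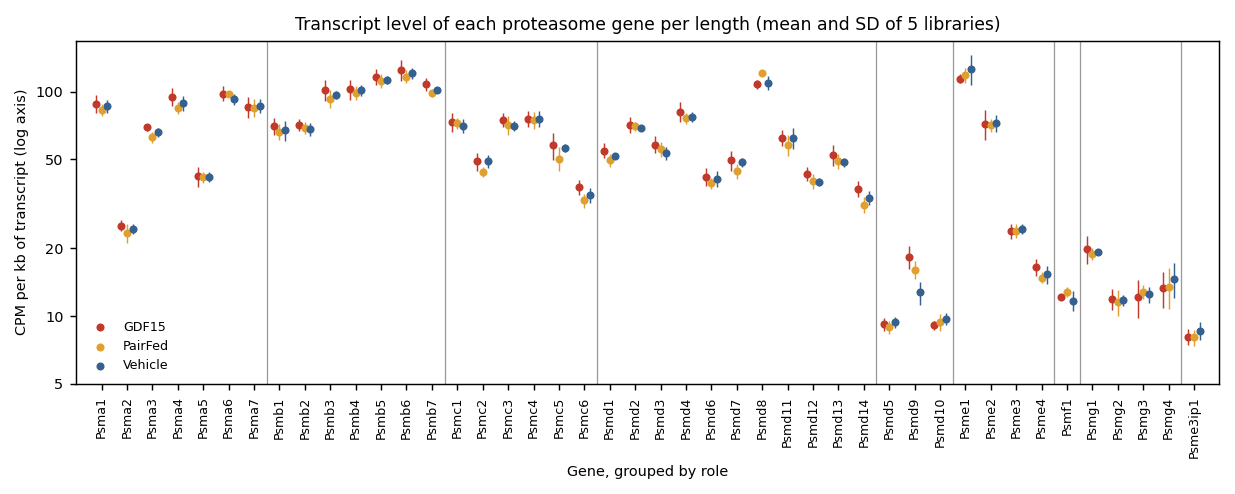
Transcript level per length (CPM per kb, log axis) of each of the 44 proteasome genes, grouped by role from the alpha ring at left. Points are group means of 5 libraries with SD bars for GDF15, PairFed and Vehicle. Means over all 15 libraries are 9.15 to 19.4 for the assembly chaperones and 67.8 to 120.8 for the beta ring genes.

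Psmd9 (chr5:123228190-123250126, plus strand, GRCm38.p6) stood apart from the other members. Its CPM was 57.4, 45.8, 42.5, 44.6 and 48.2 in the 5 GDF15 livers, 44.6, 46.9, 40.2, 37.8 and 39.7 in the PairFed livers, and 30.6, 34.0, 28.0, 34.8 and 38.1 in the Vehicle livers. Every GDF15 library lay above every Vehicle library, and the PairFed libraries overlapped both groups, with the lowest PairFed value just under the highest Vehicle value. Means were 47.7 ± 5.79 CPM in GDF15, 41.8 ± 3.78 in PairFed and 33.1 ± 3.92 in Vehicle (SD, n = 5 each). Behind these values were 399 to 459 counts per library in GDF15, 437 to 590 in PairFed and 269 to 475 in Vehicle.

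The rise of Psmd9 in GDF15 against Vehicle was 0.52 on the log2 scale (SE 0.09, 95% interval 0.33 to 0.72), with an adjusted p of 0.00473 in edgeR's quasi-likelihood test with Benjamini-Hochberg adjustment over all genes tested. The PairFed livers differed from Vehicle by 0.34 (interval 0.14 to 0.53, adjusted p = 0.0974), which missed the threshold. For the same comparison the adjusted p was 0.0433 in the Wald test of DESeq2 and 0.0945 in limma-voom. In edgeR it was 0.342 with a term for the libraries above the gap in total count, and 0.0651 to 0.252 with 1 library left out. Between GDF15 and PairFed the difference was 0.19 (interval -0.00 to 0.38, adjusted p = 0.384). Psmd9 therefore differed from Vehicle in GDF15 livers, and no difference between GDF15 and PairFed livers was shown. As a share of the counts of all 44 members, which does not depend on library scaling, Psmd9 made up 1.12% to 1.45% in GDF15, 1.13% to 1.25% in PairFed and 0.770% to 1.06% in Vehicle. On that scale all GDF15 and all PairFed libraries lay above all Vehicle libraries, whereas by CPM the PairFed and Vehicle libraries overlapped. How many other genes would separate on that scale was not counted. In bulk liver RNA, a change in the number of cells of a type and a change in RNA per cell cannot be told apart.

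In all, 1 of the 44 members (2.27%) passed the test in GDF15 against Vehicle, where 2.9% of all genes tested did and 2.02% were higher. Psmd9 was also the only member whose GDF15 and Vehicle libraries did not overlap, a pattern that 3.99% of all genes showed. Both shares for the proteasome genes were near or below those of all genes. The rise held in all 25 alternative settings tried, with log2 fold changes of 0.41 to 0.58 and adjusted p-values of 5.81e-05 to 0.0267. These settings include each PairFed library left out, which belongs to neither group compared, and the log2 fold change then stayed at 0.53.

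The chaperones with the same job for other ATPases did not move with Psmd9. Psmd5, which binds Psmc1 and Psmc2, had 43.8, 38.5, 42.0, 40.3 and 37.0 CPM in GDF15, 42.9, 39.7, 39.0, 37.9 and 36.4 in PairFed, and 40.6, 39.4, 45.2, 39.6 and 41.2 in Vehicle. Psmd10 (gankyrin), which binds Psmc4, had 12.5, 12.7, 13.7, 12.3 and 12.8 CPM in GDF15, 13.7, 14.9, 12.2, 12.1 and 13.4 in PairFed, and 13.3, 12.8, 13.3, 14.9 and 14.02 in Vehicle. The groups overlapped for both genes. In GDF15 against Vehicle the log2 fold change was -0.03 for Psmd5 (95% interval -0.16 to 0.10) and -0.09 for Psmd10 (-0.27 to 0.08). Against Psmd5 within the same library, Psmd9 counts were 101% to 131% in GDF15, 99.6% to 118% in PairFed and 61.8% to 92.5% in Vehicle. Against the ATPase Psmc3 they were 32.5% to 44.2% in GDF15, 33.4% to 40.3% in PairFed and 24.1% to 33.4% in Vehicle. On that ratio GDF15 3 (32.5%) lay below Vehicle 5 (33.4%), so GDF15 and Vehicle overlapped.

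**Figure D2:**
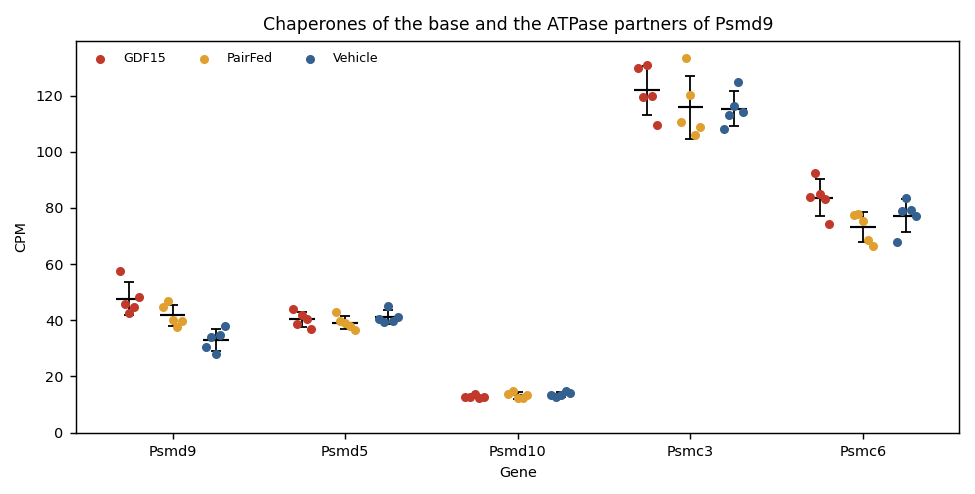
CPM of the 3 regulatory particle chaperones Psmd9, Psmd5 and Psmd10 and of the ATPases Psmc3 and Psmc6, which Psmd9 holds, in each library (points) with the group mean and SD (black), n = 5 each for GDF15, PairFed and Vehicle. The GDF15 points of Psmd9 (42.5 to 57.4) lie above all its Vehicle points (28.0 to 38.1), while the groups overlap for the other genes.

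The ATPase partners of Psmd9 did not pass the test either. Psmc3 averaged 121.9 ± 8.72 CPM in GDF15, 115.8 ± 11.2 in PairFed and 115.3 ± 6.18 in Vehicle (SD, n = 5 each). Psmc6 averaged 83.7 ± 6.52, 73.2 ± 5.30 and 77.3 ± 5.79 CPM in GDF15, PairFed and Vehicle. Their log2 fold changes in GDF15 against Vehicle were 0.08 (95% interval -0.07 to 0.23) and 0.11 (-0.03 to 0.26).

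In the GENCODE vM21 annotation of GRCm38, Psmd9 overlaps Hpd, an enzyme of tyrosine breakdown abundant in hepatocytes, on the opposite strand. In RefSeq, Hpd ends 45.5 kb before Psmd9 begins. Hpd averaged 1768 ± 337 CPM in GDF15, 1265 ± 129 in PairFed and 1069 ± 146 in Vehicle (SD, n = 5 each), and it rose in GDF15 against Vehicle by 0.73 on the log2 scale (adjusted p = 0.0028, edgeR). On the other side, Wdr66 begins 1.6 kb after Psmd9 ends in RefSeq, and it averaged only 2.18 CPM in GDF15 and 2.89 in Vehicle. Its log2 fold change in that comparison was -0.40 (95% interval -0.99 to 0.19, adjusted p = 0.515, edgeR). No base of a GENCODE exon of Psmd9 lies in an exon of Hpd. Of the 7248 exonic bases annotated for Psmd9, 1849 lie in exons of the noncoding gene Gm26745 on the opposite strand, which has no row in the count table. Whether reads of that gene were counted with Psmd9 was not tested.

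The 7 alpha ring and 7 beta ring genes differed little between GDF15 and Vehicle. The alpha ring ran from -0.02 (Psma7) to 0.09 (Psma4) on the log2 scale, and the beta ring from 0.02 (Psmb4) to 0.08 (Psmb7). The 95% intervals of these 14 genes spanned -0.19 to 0.24. Psmb5, the subunit that cuts after hydrophobic residues, had 99.2, 84.8, 93.0, 86.9 and 79.2 CPM in GDF15, 90.6, 91.7, 81.6, 83.1 and 76.9 in PairFed, and 80.4, 85.0, 87.5, 87.8 and 88.0 in Vehicle. The 3 groups overlapped, and the GDF15 and PairFed libraries were spread more widely than the Vehicle libraries. Psmb6, which cuts after acidic residues, averaged 99.7 ± 10.3 CPM in GDF15, 93.0 ± 6.01 in PairFed and 96.5 ± 5.47 in Vehicle (SD, n = 5 each). Psmb7, which cuts after basic residues, averaged 124.9 ± 8.26, 114.9 ± 4.79 and 118.1 ± 2.88 CPM in GDF15, PairFed and Vehicle.

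Among the ATPases and other regulatory particle subunits the widest differences were between GDF15 and PairFed. Psmd14, the deubiquitinase that strips ubiquitin from the substrate, had 60.6, 60.7, 55.9, 58.1 and 49.3 CPM in GDF15, 52.8, 51.0, 45.9, 42.7 and 48.4 in PairFed, and 49.6, 52.7, 56.2, 47.0 and 53.4 in Vehicle. Of the GDF15 values, 49.3 alone fell among the PairFed values. The difference between GDF15 and PairFed was 0.24 on the log2 scale (95% interval 0.09 to 0.40), and its adjusted p of 0.147 missed the threshold.

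Psmd8, a subunit of the lid, ran the other way. It had 155.1, 165.5, 175.2, 157.8 and 168.4 CPM in GDF15, 186.2, 178.4, 184.5, 193.4 and 182.2 in PairFed, and 178.7, 148.4, 174.2, 162.4 and 173.2 in Vehicle. Every GDF15 library lay below every PairFed library, as was so for 1 of the 44 members and for 2.86% of all genes in either direction. The difference was -0.17 (95% interval -0.29 to -0.05, adjusted p = 0.205, edgeR), and PairFed stood 0.14 above Vehicle (adjusted p = 0.218). Psmc2, an ATPase, averaged 87.1 ± 7.82 CPM in GDF15, 78.2 ± 4.02 in PairFed and 87.3 ± 5.51 in Vehicle (SD, n = 5 each), and its -0.16 was the lowest log2 fold change of PairFed against Vehicle (adjusted p = 0.24).

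The remaining large subunits did not pass the test in any comparison. Psmd1 and Psmd2, the scaffold subunits, averaged 169.8 ± 13.1 and 210.9 ± 17.6 CPM in GDF15, 154.1 ± 10.6 and 208.0 ± 9.65 in PairFed, and 161.4 ± 4.82 and 204.2 ± 6.94 in Vehicle (SD, n = 5 each). The ubiquitin receptor Psmd4 averaged 108.5 ± 10.7 CPM in GDF15, 101.6 ± 5.73 in PairFed and 103.1 ± 5.21 in Vehicle. Psmd11, a lid subunit, averaged 139.3 ± 10.997, 129.0 ± 13.8 and 139.1 ± 14.6 CPM in GDF15, PairFed and Vehicle.

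The activators cap the barrel in place of the regulatory particle. Psme1 and Psme2 form the cap that interferon induces, Psme3 forms a nuclear cap, and Psme4 is a single large chain. Psme1 had 86.1, 81.2, 82.2, 79.9 and 75.8 CPM in GDF15, 74.0, 90.1, 89.7, 82.0 and 84.0 in PairFed, and 71.4, 98.7, 92.2, 105.0 and 80.5 in Vehicle. The Vehicle libraries spanned both the lowest and the highest of the 15 values. In GDF15 against Vehicle its log2 fold change was -0.15 (95% interval -0.33 to 0.04, adjusted p = 0.443), and that of Psme2 was -0.01 (-0.20 to 0.17). Psme3 stood at -0.04 (-0.18 to 0.10) and Psme4 at 0.10 (-0.05 to 0.26).

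The inhibitor Psmf1 averaged 31.5 ± 0.843 CPM in GDF15, 33.2 ± 1.74 in PairFed and 30.4 ± 3.004 in Vehicle (SD, n = 5 each). The core particle chaperones Psmg1 to Psmg4, which build the alpha ring, were among the least abundant members by CPM, and Psmg4 had 6.85 ± 1.26 CPM in GDF15, 6.96 ± 1.44 in PairFed and 7.52 ± 1.35 in Vehicle. Psmg4 gave the least precise estimate, at -0.15 in GDF15 against Vehicle with a 95% interval of -0.50 to 0.20. Psmg3 averaged 9.80 ± 1.88, 10.4 ± 0.757 and 10.1 ± 0.823 CPM in GDF15, PairFed and Vehicle.

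**Figure D3:**
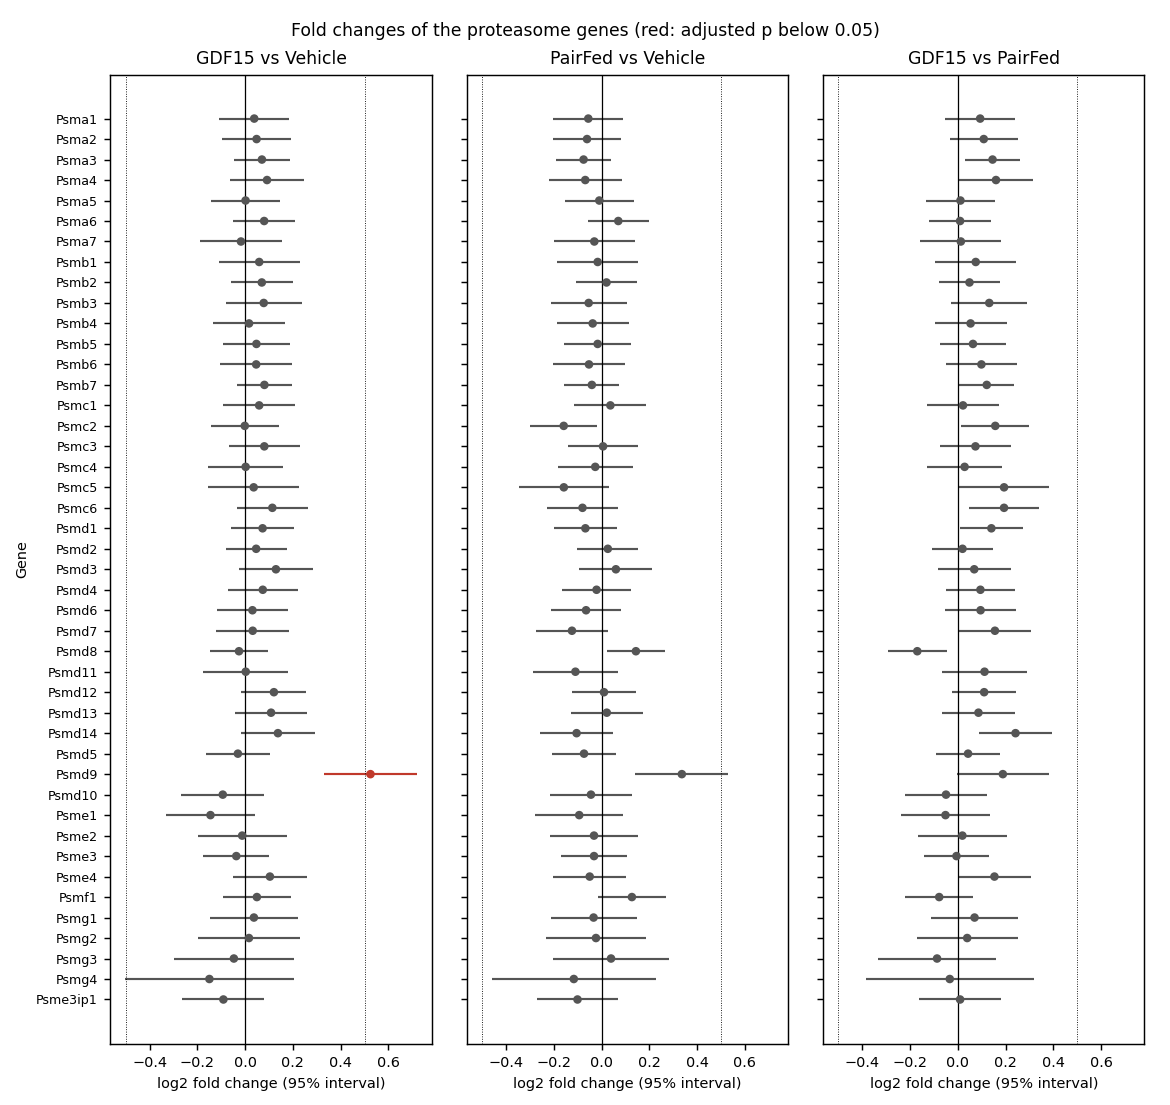
Log2 fold change (x axis) with its 95% interval (line) for each of the 44 proteasome genes (rows), with GDF15 and PairFed each against Vehicle at left and centre and GDF15 against PairFed at right. Dotted lines mark 0.5 on either side of 0, and Psmd9 at 0.52 in GDF15 vs Vehicle is the one gene in red, past an adjusted p of 0.05.

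The data bounded the changes of most members closely. The 95% interval lay wholly within 0.5 log2 of 0 for 42 of 44 members in GDF15 against Vehicle, 43 in PairFed against Vehicle and all 44 in GDF15 against PairFed, against 64.8%, 65.6% and 66.7% of all genes in these comparisons. The exceptions were Psmd9 in both comparisons with Vehicle and Psmg4 in the first. The median SD within a group was 0.11 log2 over the members and 0.18 over all genes, and most members are abundant. No member passed the test in PairFed against Vehicle (0.285% of all genes did) or in GDF15 against PairFed (0.782% did). Without adjustment, p was below 0.05 for 3 members in PairFed against Vehicle (Psmc2, Psmd8 and Psmd9), which is 6.82%, against 16.9% of all genes. In GDF15 against PairFed it was below 0.05 for 10 members (22.7%), 9 of them higher in GDF15, against 13.3% of all genes, and in GDF15 against Vehicle for Psmd9 alone, against 16.7%. By CPM, no member's PairFed and Vehicle libraries were wholly apart, against 3.92% of all genes.

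The median log2 fold change of the members was 0.05 in GDF15 against Vehicle, with 33 of 44 above 0. It was -0.04 in PairFed against Vehicle, with 12 of 44 above 0, and 0.07 in GDF15 against PairFed, with 37 of 44 above 0. Over all genes tested, 48.9%, 49.9% and 50.2% were above 0 in these comparisons, with medians of -0.00, -0.00 and 0.00. The sign of the members' median depended on the scaling in the comparisons of GDF15, where the median of all genes shifted with it. With library totals in place of TMM, the median of the members in GDF15 against Vehicle was -0.07 with 4 of 44 above 0, beside -0.12 over all genes, and in GDF15 against PairFed it was -0.00 with 22 of 44 above 0, beside -0.07. PairFed against Vehicle kept its sign, with -0.08 for the members and 5 of 44 above 0, beside -0.04 over all genes. The members' share of all counts had a median of 0.352% in GDF15 (0.339% to 0.372%), 0.352% in PairFed (0.344% to 0.365%) and 0.369% in Vehicle (0.363% to 0.380%).

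Within a group, the members tended to be high or low together in a library. In GDF15, 38, 29, 38, 26 and 3 of the 44 members stood above their own median over the 15 libraries in libraries 1 to 5. In PairFed it was 20, 34, 12, 5 and 6, and in Vehicle 7, 28, 23, 21 and 18. Libraries of one group thus differed more in these counts than the groups did, and GDF15 held both the highest and the lowest. In GDF15 1, all 7 alpha ring, all 7 beta ring and all 6 ATPase genes were above their medians, and so were 9 of the 11 other regulatory particle subunits. In GDF15 5 it was 1 of 7, 0 of 7, 0 of 6 and 0 of 11, and in PairFed 4 it was 1 of 7, 0 of 7, 0 of 6 and 1 of 11. Without GDF15 1 the median log2 fold change of the members dropped to 0.01 in GDF15 against Vehicle and to 0.03 in GDF15 against PairFed, and without GDF15 5 it was 0.08 and 0.11.

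**Figure D4:**
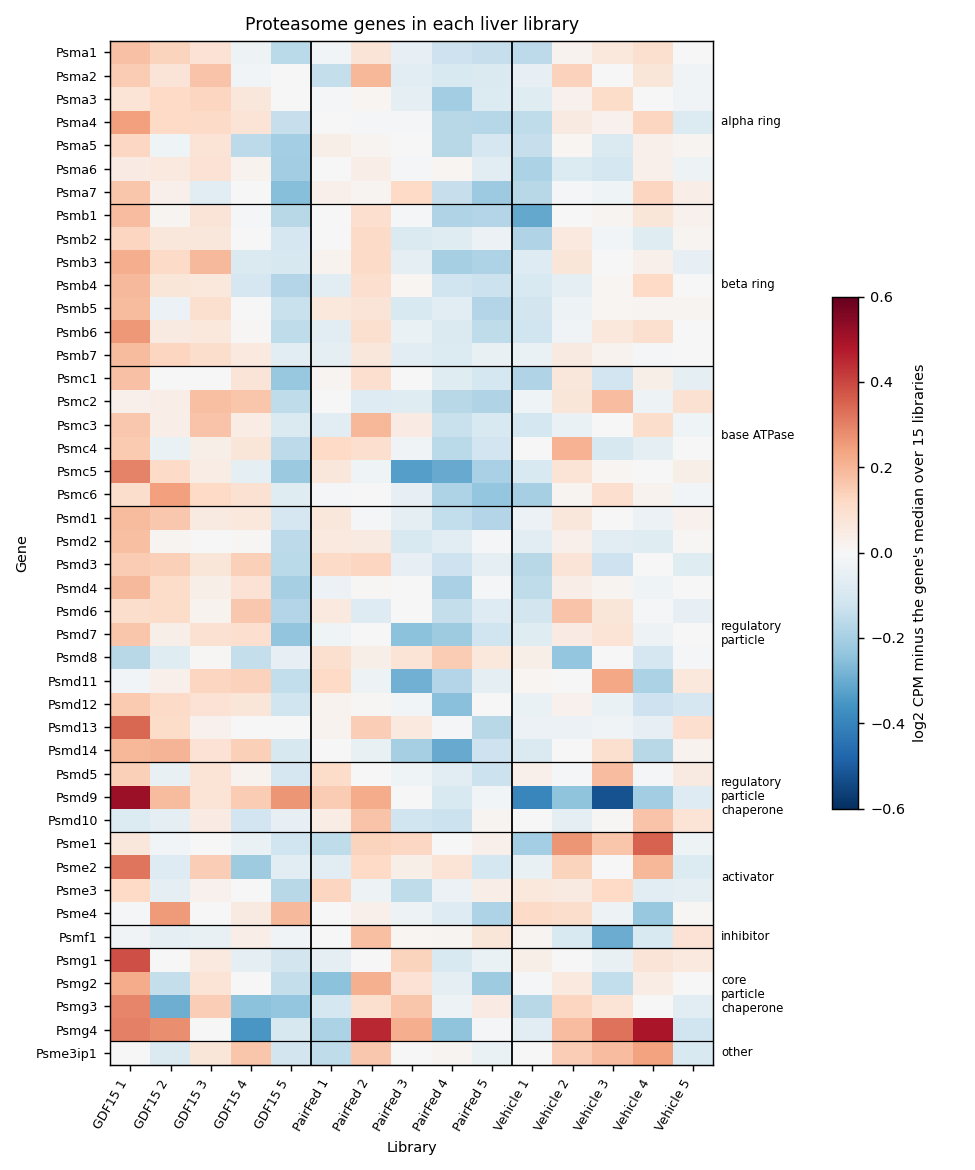
Log2 CPM of each of the 44 proteasome genes (rows, by role) in each of the 15 libraries (columns, GDF15 at left, then PairFed and Vehicle), minus the gene's median over the libraries, with colours at full strength from 0.6 log2 either way. Columns GDF15 1 (38 of 44 genes above their median) and GDF15 5 (3 of 44) differ over nearly their whole length, and the Psmd9 row is red in GDF15 and blue in Vehicle.

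In each group, the library with the highest hepatocyte marker sum had the most members above their median, with a tie in GDF15, and the library with the lowest sum had the fewest. In GDF15 the sum was 132850 CPM in library 1, where 38 members were above their median, and 103130 in library 5, where 3 were. The order did not hold throughout the group, since library 3 also had 38 members above their median with a sum of 111140, and library 4 had 26 with a sum of 124350. In PairFed it was 119610 in library 2, where 34 were, and 95529 in library 4, where 5 were. In Vehicle it was 108040 in library 2, where 28 were, and 85814 in library 1, where 7 were. The contrast between libraries also depends on the scaling, since the members' unscaled share of all counts was 0.365% and 0.339% in GDF15 1 and 5, 0.365% and 0.350% in PairFed 2 and 4, and 0.369% and 0.368% in Vehicle 2 and 1. GDF15 1 also had the lowest sums of its group for Kupffer cell (148.5 CPM), endothelial (50.7 CPM), stellate and fibroblast (223.2 CPM) and bile duct markers (125.2 CPM). Of the 10 hepatocyte markers, 2 passed the test as higher in GDF15 against Vehicle, where 2.02% of all genes tested rose. In GDF15 against PairFed 1 was higher, where 0.782% of all genes changed in either direction. Whether the sum follows hepatocyte content alone was not tested, and neither was the part of cell makeup in the members' levels.

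Interferon-inducible catalytic subunits replace constitutive ones, so each inducible transcript was set against its constitutive counterpart within the same library. The ratio of Psmb9 to Psmb6 counts was 19.0%, 19.5%, 19.3%, 19.3% and 16.1% in GDF15, 23.2%, 26.2%, 36.5%, 28.8% and 28.5% in PairFed, and 28.0%, 32.0%, 20.9%, 35.5% and 24.9% in Vehicle. All GDF15 livers lay below all PairFed and all Vehicle livers. The log2 ratio was -2.42 ± 0.118 in GDF15, -1.82 ± 0.239 in PairFed and -1.84 ± 0.298 in Vehicle (SD, n = 5 each). GDF15 fell below Vehicle by 0.58 and below PairFed by 0.61, each with p = 0.00794 in a two-sided exact permutation test, the smallest that 5 against 5 allows, and p = 0.0238 adjusted over 9 such tests. The pairs were chosen with earlier results of these data known, which that adjustment does not cover. PairFed and Vehicle differed by 0.03 (exact permutation p = 0.873).

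In the comparisons of GDF15 the other pairs differed less. The ratio of Psmb10 to Psmb7 was 24.5%, 22.4%, 22.7%, 21.4% and 21.7% in GDF15, 25.4%, 30.0%, 32.2%, 30.4% and 26.2% in PairFed, and 29.1%, 23.7%, 23.3%, 37.6% and 20.5% in Vehicle. GDF15 livers lay below all PairFed livers, by 0.35 log2 (exact permutation p = 0.00794, adjusted p = 0.0238), and within the wide range of Vehicle livers (difference -0.22, exact permutation p = 0.254, adjusted p = 0.381). The ratio of Psmb8 to Psmb5 ran from 27.7% to 33.3% in GDF15, from 31.4% to 41.3% in PairFed and from 30.5% to 50.2% in Vehicle. Its differences, -0.34 log2 in GDF15 against Vehicle and -0.23 in GDF15 against PairFed, had adjusted p-values of 0.0893 and 0.1 in the exact permutation test. In PairFed against Vehicle, the differences were 0.13 for Psmb10 to Psmb7 and -0.11 for Psmb8 to Psmb5, each with an adjusted p of 0.545 in the same test.

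The constitutive partners Psmb5, Psmb6 and Psmb7 did not pass the test in any comparison, and neither did Psmb8, Psmb9 or Psmb10 singly. Psmb9 was nearest, at -0.56 log2 in GDF15 against Vehicle (adjusted p = 0.0656, edgeR). It overlaps the antigen peptide transporter gene Tap1 in the annotation, and Tap1 fell by 0.41 in the same comparison (adjusted p = 0.018). Whether the 2 genes share reads was not tested. Summed CPM of recruited monocyte and macrophage markers ran from 95.7 to 181.8 in GDF15, from 91.4 to 176.8 in PairFed and from 121.3 to 229.7 in Vehicle. That of T and NK cell markers ran from 1.86 to 3.33 in GDF15, from 1.61 to 3.67 in PairFed and from 2.997 to 8.61 in Vehicle. Of the 6 T and NK cell markers, only 3 were abundant enough to be tested. In GDF15 against Vehicle 1 of these 3 fell, as did 1 of the 7 recruited monocyte and macrophage markers. Of all genes tested, 2.9% changed in either direction there. None of these markers passed the test in the other comparisons. The part of these cells in the ratios was not tested.

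**Figure D5:**
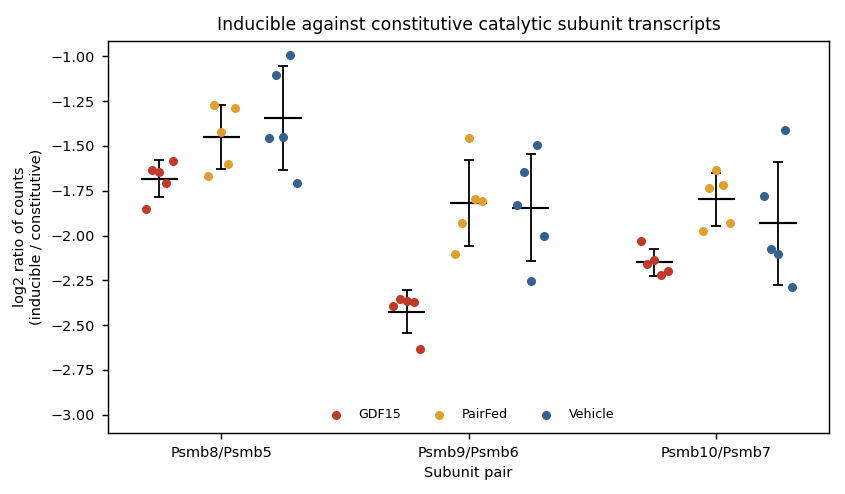
Log2 ratio of inducible to constitutive counts (y axis) for Psmb8/Psmb5, Psmb9/Psmb6 and Psmb10/Psmb7 in each library (points) of GDF15, PairFed and Vehicle, with group mean and SD in black (n = 5 each). For Psmb9/Psmb6 the GDF15 points, from -2.63 to -2.35, lie below all others.

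Genes that act with the proteasome were counted from lists. The lists were chosen with earlier results of these data known, so their counts and medians beside all genes are descriptions and no test. Of 12 tested further parts and partners, among them the assembly factor Pomp and the deubiquitinases Usp14 and Uchl5, none passed the test in any comparison. Of 20 genes of ubiquitin, its activation and its shuttles, none passed either. Of 14 regulators of proteasome genes, 2 rose in GDF15 against Vehicle, where 2.02% of all genes tested rose. These were Foxo1, by 0.89 on the log2 scale (adjusted p = 0.00573, edgeR), and Foxo3, by 0.67 (adjusted p = 0.00259), factors active when insulin signalling is low. Foxo3 averaged 82.7 ± 8.44 CPM in GDF15, 68.4 ± 4.95 in PairFed and 51.8 ± 10.3 in Vehicle (SD, n = 5 each). Nfe2l1, which raises proteasome genes when the proteasome is inhibited, averaged 169.0 ± 12.1, 176.1 ± 15.04 and 172.4 ± 8.12 CPM in GDF15, PairFed and Vehicle, with a log2 fold change of -0.03 in GDF15 against Vehicle (95% interval -0.17 to 0.11). Nfe2l2 stood lower than Vehicle in both other groups without passing the test. It differed by -0.34 in GDF15 (95% interval -0.60 to -0.08, adjusted p = 0.155, edgeR) and by -0.29 in PairFed (-0.55 to -0.03, adjusted p = 0.235). Of 25 interferon-induced genes, 4 fell in GDF15 against Vehicle (Gbp2, Tap1, Ubd and Cxcl10) and 1 fell in GDF15 against PairFed (Tap1), where 2.9% and 0.782% of all genes tested changed in either direction. Ubd, a ubiquitin-like tag that sends proteins to the proteasome, averaged 7.61 ± 2.33 CPM in GDF15, 14.6 ± 3.31 in PairFed and 20.7 ± 6.69 in Vehicle (SD, n = 5 each), and fell by 1.46 on the log2 scale in GDF15 against Vehicle (adjusted p = 0.00645, edgeR). The list's median log2 fold change was -0.28 in GDF15 against Vehicle and -0.17 in GDF15 against PairFed, beside -0.00 and 0.00 over all genes tested.

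Counts of some members may hold reads of other genes. In GENCODE vM21, 20 of the 44 overlap another gene, 16 of them a gene on the opposite strand. These overlaps are of whole gene spans, introns included, and shared exonic bases were counted for Psmd9 only. Psma5, Psmb5, Psmb6 and Psmb7 have pseudogenes of their name in RefSeq. The catalytic ratios rest on 3 of these 4 genes.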

How the data were processed

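The authors deposited whole-number expected counts per gene symbol, not scaled to depth. Per the submitters' processing notes, Salmon, DESeq2 and mm10 were used, with no version or role stated, and reading the values as rounded Salmon estimates is an inference. RNA was made into libraries with a directional kit, per the labels' protocols. Neither the transcript set nor the strand setting was stated (not given in the sources used here). Columns carried group names that matched no single animal, so libraries are numbered by table order, as names only.

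Genes passing filterByExpr (12274 genes, minimum count 10, minimum total 15) in edgeR 4.0.16 (R 4.3.3) were scaled by TMM and fitted in one robust quasi-likelihood model of the 15 libraries. The p-values of each of 3 contrasts were adjusted by Benjamini-Hochberg, with a threshold of 0.05. CPM, log2 fold changes, SE and 95% intervals were computed here. Each of 3 inducible to constitutive ratios (0.5 added to each count) was tested by a two-sided exact permutation test over 252 splits. The edgeR test, but not the permutation test, was tried on simulated counts. Alternatives used DESeq2 1.42.0, limma-voom (limma 3.58.1), other scaling factors and filters, a fit of 2 groups, a depth term and each library left out. Library totals alone and a fit of shallow libraries were added after the data were seen.

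Members, roles, catalytic pairs and gene lists were chosen with earlier results of these data known. Named genes were members past the threshold, the 3 highest and 3 lowest fold changes in each contrast, and members of a set role such as catalytic subunits, activators and chaperones. Not all are printed. Promoters and gene positions are from RefSeq tables of GRCm38.p6, the assembly behind mm10. Overlaps and transcript lengths are from GENCODE vM21.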

Additional observations from a re-analysis of the deposited data

Results flagged for a closer look

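In 4 of 99 groups of 5 libraries looked at (the members of the naming rule and the 3 catalytic ratios, in each group), one library stood far from the other 4. Chance alone marks about 1 in 20 such groups. Psmd3 had 105.8 CPM in GDF15 5, against 124.7 for the nearest other GDF15 library. Psmb7 had 123.2 CPM in PairFed 2, against 114.1 for the nearest other PairFed library. Psmd4 had 91.6 CPM in PairFed 4, against 102.4 for the nearest. The log2 ratio of Psmb9 to Psmb6 was -2.63 in GDF15 5, against -2.39 for the nearest other GDF15 library.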

How the results depend on the processing

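Psmd9 passed the threshold in GDF15 vs Vehicle in all 25 alternatives, and no other member did in the settings tried. The alternatives without a PairFed library bear little on that comparison. In PairFed vs Vehicle the DESeq2 Wald test called 1 member, Psmd9 (0.34, adjusted p = 0.0433). With a depth term in edgeR the adjusted p of Psmd9 was 0.342. With library totals only, the members' median in GDF15 vs Vehicle was -0.073. The number of genes changed in GDF15 vs Vehicle was 356, and it was 642 with the DESeq2 Wald test, 194 in a fit of those 2 groups, 160 in the shallow libraries and 134 to 476 with a library left out. In PairFed vs Vehicle 35 genes changed, and the number was 340 with DESeq2, 0 with a depth term, 59 with library totals and 0 to 135 with a library left out. In GDF15 vs PairFed 96 genes changed, and the number was 257 with DESeq2, 9 with a depth term and 21 to 171 with a library left out. The share of changed genes that were higher was 69.7%, 51.4% and 71.9% in these comparisons. It was 58.7% in GDF15 vs Vehicle and 32.5% in PairFed vs Vehicle with upper-quartile factors, and 28%, 22% and 39.5% with library totals. With 1 library left out, the log2 ratio difference of Psmb9/Psmb6 stayed past the threshold in GDF15 vs Vehicle (-0.68 to -0.49) and GDF15 vs PairFed (-0.68 to -0.52), as did Psmb10/Psmb7 in GDF15 vs PairFed (-0.40 to -0.31). Psmb9/Psmb6 in PairFed vs Vehicle ran from -0.075 to 0.115, changing sign without PairFed 3 (-0.064), Vehicle 3 (-0.075) or Vehicle 5 (-0.012). Psmb8/Psmb5 ran from -0.43 to -0.25 in GDF15 vs Vehicle and from -0.29 to -0.19 in GDF15 vs PairFed, and passed the threshold without Vehicle 5 (-0.43, exact permutation adjusted p = 0.0179) and without PairFed 1 (-0.29, exact permutation adjusted p = 0.0357). The causes of these differences were not tested. No paired analysis was possible because the columns carry no animal numbers. The lowest members by CPM limit precision most, as the interval of Psmg4 shows.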
